A study of Rattus norvegicus and Mus musculus with 22 samples.

Results

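The angiopoietin and platelet-derived growth factor (PDGF) systems were followed through 10 genes taken by symbol from the 3 rat count tables: the angiopoietins Angpt1 and Angpt2, their Tie receptors Tek (Tie2) and Tie1, the ligands Pdgfa, Pdgfb, Pdgfc and Pdgfd, and the receptors Pdgfra and Pdgfrb. All 10 were listed, among 22081 gene symbols per table. Angiopoietin-1 activates Tie2 on endothelial cells and steadies the vessel wall, whereas angiopoietin-2, released by the endothelium itself, can weaken that signal, and Tie1 is a co-receptor that tunes it. PDGF-B and PDGF-D act through PDGF receptor beta on pericytes and smooth muscle, and PDGF-A and PDGF-C act mainly through PDGF receptor alpha on fibroblast-like cells. Both systems are known for their place in the remodelling of pulmonary arteries.

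The rats were given Sugen-hypoxia, a model of pulmonary hypertension that joins a blocker of the VEGF receptor to low oxygen. Rats lacking interleukin-6 (IL6KO, labelled IL6-KO) were set against wild type (WT) rats, and every group had received Sugen-hypoxia, so no untreated lung is compared here. Whole-lung RNA was sequenced at day 56 in IL6KO and in WT rats, and at day 7 in IL6KO and in WT rats (3 libraries in each of these groups). Cells positive for CD4, separated from lung with magnetic beads (MACS), were sequenced at day 7 in IL6KO and in WT rats (2 libraries each). The labels do not give the rats' strain, age or sex, the stretch of Il6 that is missing, or whether the libraries of a group came from separate animals, so p-values measure the spread between these libraries, which may be technical.

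Total counts ran from 14415060 to 23590070 in the 12 lung libraries and from 11477533 to 12930732 in the 4 CD4 libraries. Il6 itself had 0 to 3 counts in IL6KO and 5 to 6 counts in WT at day 56, 2 to 8 counts in IL6KO and 5 to 11 counts in WT lung at day 7, and 8 and 17 counts in IL6KO and 48 and 20 counts in WT CD4 isolates. Il6 RNA was thus scarce in both genotypes of day 7 lung and did not separate them there, and the genotypes were taken from the labels. One library stood apart. On the first principal component of the day 56 table (44.5% of the variance) WT replicate 3 lay at -18.3, among the IL6KO libraries at -22.0, -16.9 and -22.0, while WT replicates 1 and 2 lay at 45.3 and 34.0. Results at day 56 are therefore given with and without WT replicate 3. It was picked for lying with the IL6KO libraries, so leaving it out favours a separation of the genotypes.

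Levels are given as CPM, counts scaled to the library total, after TMM scaling for library composition, with libraries in the order of their replicate numbers. Differences are log2 fold changes with their standard error (SE) from edgeR's quasi-likelihood test, and a gene was called when its Benjamini-Hochberg adjusted p over all genes tested was under 0.05. CPM of different genes are not compared, because they depend on transcript length. In bulk lung, fewer cells of a type and less RNA per cell cannot be told apart.

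The first question was whether the loss of interleukin-6 goes with a change in either system at day 7. Angpt1, Pdgfb and Pdgfd were higher in IL6KO lung, by 1.38-fold, 1.39-fold and 1.70-fold, and none of the 10 genes was called lower. The other 7 genes, including both Tie receptors and both PDGF receptors, were not called. Over all 14368 genes tested, 2.09% were called, 0.933% higher and 1.16% lower, against 3 of 10 here. The median log2 fold change was 0.15 for the 10 genes and 0.00 for all genes.

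Among the ligands of Tie2, Angpt1 had 38.3, 39.5 and 34.9 CPM in IL6KO lung, against 25.7, 28.5 and 27.2 CPM in WT lung at day 7. All 3 IL6KO libraries lay above all 3 WT libraries, and Angpt1 was called higher (log2 fold change 0.47, SE 0.085, edgeR adjusted p = 0.0306). Angpt2, the ligand that endothelial cells store and release, had 34.8, 27.7 and 30.1 CPM in IL6KO lung, against 24.2, 26.9 and 28.8 CPM in WT lung. The groups overlapped, and the difference of 0.21 (SE 0.11) was not called (edgeR adjusted p = 0.426). The ratio of Angpt2 to Angpt1 counts, which needs no scaling between libraries, was 0.909, 0.702 and 0.862 in IL6KO lung and 0.942, 0.944 and 1.06 in WT lung. On the log2 scale it averaged -0.29 ± 0.20 in IL6KO lung and -0.03 ± 0.10 in WT lung (SD, n = 3 each). The difference was -0.26, with every IL6KO library below every WT library. How often ratios of other genes separate in this way was not computed.

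**Figure D1:**
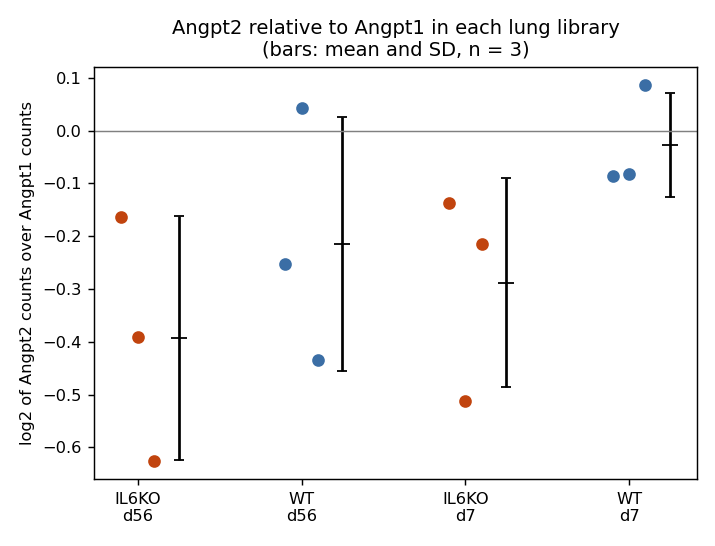
Log2 ratio of Angpt2 to Angpt1 counts in each whole-lung library, with IL6KO left of WT and day 56 (d56) left of day 7 (d7). Points are libraries and bars are the mean and SD (n = 3). At day 7 the IL6KO libraries, from -0.51 to -0.14, lie below the WT libraries, from -0.09 to 0.09, and at day 56 the genotypes overlap.

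The Tie receptors stayed close in the genotypes at day 7. Tek, the gene of Tie2, had 335, 356 and 324 CPM in IL6KO lung, against 323, 351 and 321 CPM in WT lung. Tie1 had 390, 397 and 453 CPM in IL6KO lung, against 370, 391 and 426 CPM in WT lung. The libraries of the genotypes overlapped for both receptors. The log2 fold change was 0.03 for Tek (1.96 SE either side, -0.11 to 0.17) and 0.06 for Tie1 (-0.10 to 0.23). These ranges are narrower than 95% intervals, because the SE rests on few libraries. A difference the size of that in Angpt1 lies outside both ranges.

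Of the ligands of PDGF receptor beta, Pdgfb had 181, 162 and 166 CPM in IL6KO lung, against 131, 109 and 126 CPM in WT lung at day 7. Its product, made by endothelial cells and platelets among others, draws pericytes to new vessels. The groups did not overlap, and Pdgfb was called higher (log2 fold change 0.48, SE 0.088, edgeR adjusted p = 0.0314). Pdgfd, whose product is secreted in a latent form and freed by proteases, had 21.2, 19.5 and 16.1 CPM in IL6KO lung, against 11.7, 12.2 and 9.42 CPM in WT lung. It did not overlap between the genotypes either and was called higher (log2 fold change 0.77, SE 0.14, edgeR adjusted p = 0.0321).

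Because Pdgfb and Pdgfd were the PDGF genes called higher in IL6KO lung, their promoters are shown from RefSeq on the rat build GRCr8, from 250 bases before to 50 bases after the annotated start, 5′ to 3′ on the gene's strand. Pdgfb lies on the minus strand at chr7:113438294-113438593 and Pdgfd on the plus strand at chr8:11773258-11773557. Capitals mark a match to ACGTG, a form of the core of the hypoxia response element, read on either strand. The other form, GCGTG, was not searched over all promoters and is not marked. Read as CACGC it is present in both windows, so a window without capitals is not free of the core.
Pdgfb: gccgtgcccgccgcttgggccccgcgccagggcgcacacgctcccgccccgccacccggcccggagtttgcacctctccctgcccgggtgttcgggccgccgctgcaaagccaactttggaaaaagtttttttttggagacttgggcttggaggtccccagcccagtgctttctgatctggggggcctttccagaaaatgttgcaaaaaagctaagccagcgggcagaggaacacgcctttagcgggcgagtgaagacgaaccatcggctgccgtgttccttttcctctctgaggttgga
Pdgfd: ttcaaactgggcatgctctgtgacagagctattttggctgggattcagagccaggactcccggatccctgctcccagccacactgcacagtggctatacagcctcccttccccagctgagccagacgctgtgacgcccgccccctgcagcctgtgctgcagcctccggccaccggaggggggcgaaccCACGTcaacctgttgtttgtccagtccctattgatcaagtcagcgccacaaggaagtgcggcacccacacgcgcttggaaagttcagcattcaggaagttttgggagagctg
The STAT-type motif TTCNNNGAA was in neither window, against 8.87% of the 33469 rat promoters of this length. ACGTG, read on both strands, was found 1 time in the Pdgfd window, as CACGT, and not in that of Pdgfb, against 19.3% of all promoters. The ETS core GGAA, on both strands, matched 5 times in Pdgfb and 4 times in Pdgfd, and 95.8% of all promoters hold it. A match of letters is a description and not a binding site, and no match in these windows overlapped that of another motif. Promoters of 6 of the 10 genes were matched by symbol (Tie1, Pdgfa, Pdgfb, Pdgfc, Pdgfd and Pdgfra), and among these TTCNNNGAA was found in Pdgfa, 1 time.

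Pdgfa and Pdgfc, whose products act mainly through PDGF receptor alpha, were not called with genotype at day 7. Pdgfa, which epithelial cells of the lung supply to alveolar myofibroblasts, had 43.0, 48.3 and 48.4 CPM in IL6KO lung, against 49.4, 42.2 and 49.0 CPM in WT lung. Pdgfc, a second latent ligand, had 4.45, 3.88 and 3.87 CPM in IL6KO lung, against 3.63, 4.69 and 3.65 CPM in WT lung. Both overlapped between the genotypes, with log2 fold changes of -0.01 (1.96 SE either side, -0.18 to 0.16) for Pdgfa and 0.02 (-0.33 to 0.36) for Pdgfc. Pdgfc rested on 54 to 109 counts in a library.

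The receptors of PDGF lay above WT in every IL6KO library at day 7 but were not called. Pdgfra, found on lung fibroblasts, had 265, 265 and 230 CPM in IL6KO lung, against 224, 176 and 207 CPM in WT lung (log2 fold change 0.33, SE 0.10, edgeR adjusted p = 0.163). Pdgfrb, found on pericytes and smooth muscle, had 295, 291 and 292 CPM in IL6KO lung, against 268, 274 and 287 CPM in WT lung (log2 fold change 0.08, SE 0.063, edgeR adjusted p = 0.645). With Angpt1, Pdgfb and Pdgfd, 5 of the 10 genes had every IL6KO library above every WT library and none had every IL6KO library below, against 9.09% and 9.66% of all genes tested. At an unadjusted p under 0.05 there were 4 of the 10 genes, against 14.2% of all.

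**Figure D2:**
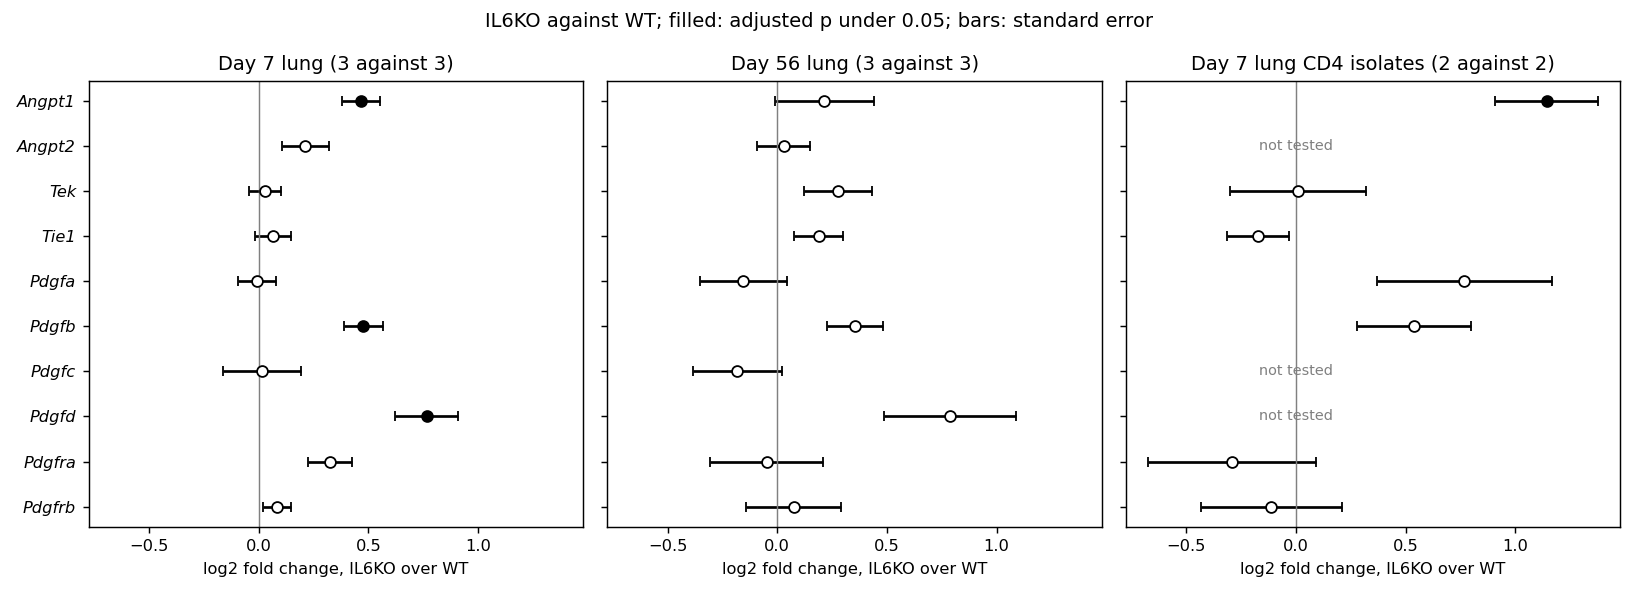
Log2 fold change of IL6KO over WT (x axis) for the 10 genes (y axis) in whole lung of each day and in the CD4 isolates. Points are edgeR estimates, bars are 1 SE and filled points have an adjusted p under 0.05. Filled points are Angpt1 (0.47), Pdgfb (0.48) and Pdgfd (0.77) in day 7 lung and Angpt1 (1.14) in CD4 isolates, and no point is filled at day 56.

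The 3 calls at day 7 rested on all but 1 of the libraries. They were kept without IL6KO replicate 3. None of Angpt1, Pdgfb and Pdgfd was called without IL6KO replicate 1 (edgeR adjusted p = 0.102, 0.106 and 0.109), IL6KO replicate 2 (0.126, 0.0807 and 0.111), WT replicate 2 (0.0767, 0.104 and 0.0728) or WT replicate 3 (0.0872, 0.0713 and 0.0802). Without WT replicate 1, Pdgfb alone was called (0.046), with Angpt1 at 0.0868 and Pdgfd at 0.073. Their log2 fold changes stayed within 0.43 to 0.52 for Angpt1, 0.40 to 0.53 for Pdgfb and 0.66 to 0.87 for Pdgfd in these fits.

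Of the genes that surround these systems, those called at day 7 were lower in IL6KO lung. Of 20 partners and effectors of the Tie receptors, 0 were called higher and 1 lower, Mmp14, a membrane protease that sheds cell-surface proteins (log2 fold change -0.44, edgeR adjusted p = 0.0457). Among the genes that process, bind or help receive PDGF, 0 were called higher, and Serpine2, which codes for an inhibitor of serine proteases, was called lower (-0.77, edgeR adjusted p = 0.0272). Thbs1, the gene of thrombospondin-1, had -0.60 in the same list and was not called (edgeR adjusted p = 0.0574). Neither the 25 tested genes of PDGF receptor signalling nor the 16 tested immediate early genes, which growth factors induce, held a call. Without 1 library at a time the Tie partner list held 0 to 1 lower. Serpine2 was not called without any 1 of the IL6KO libraries or without WT replicate 2. The list medians were 0.06, -0.20, 0.01 and 0.07 in this order, beside 0.00 over all genes.

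Markers of the cells that make or receive these factors were read in the same fit. Of 17 tested endothelial markers, 1 was higher (Sox17, 0.52, edgeR adjusted p = 0.0476) and 0 lower, and the summed list ran from 5634 to 6087 CPM in IL6KO lung and from 5570 to 6042 CPM in WT lung. Of 12 pericyte markers, 0 were higher and 1 lower (Rgs5, -0.62, edgeR adjusted p = 0.0365), with 1783 to 1958 CPM in IL6KO lung and 1761 to 1803 CPM in WT lung. Of 12 smooth muscle markers 2 were lower (Actg2, -0.38, and Cnn1, -0.39), with 2656 to 2716 CPM in IL6KO lung and 2829 to 3065 CPM in WT lung. Platelets carry PDGF and angiopoietin-1, and of 11 tested megakaryocyte and platelet markers none was called, while the list median was 0.53 and its sum 45.3 to 64.0 CPM in IL6KO lung, against 37.9 to 43.0 CPM in WT lung, with at most 1 marker at 0 in a library. Of 14 tested fibroblast markers 0 were higher and 1 lower (Inmt, -2.07, edgeR adjusted p = 0.02), with 6015 to 7143 CPM in IL6KO lung and 7391 to 8953 CPM in WT lung. The endothelial and pericyte sums overlapped between the genotypes. The platelet sums were higher in every IL6KO library, and the smooth muscle and fibroblast sums lower. The part of these cell types in the 3 calls was not tested.

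At day 56 the same comparison called none of the 10 genes. The background was equally thin, with 0.0138% of 14475 genes called, 0% higher and 0.0138% lower. DESeq2 and limma-voom also called 0 of the 10. At an unadjusted p under 0.05 edgeR had 2 of the 10 genes, Pdgfb and Pdgfd, against 11.4% of all genes.

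Pdgfb had 121, 123 and 132 CPM in IL6KO lung, against 102, 111 and 80.5 CPM in WT lung at day 56 (log2 fold change 0.35, SE 0.13, edgeR adjusted p = 0.414). Pdgfd had 14.4, 15.2 and 28.4 CPM in IL6KO lung, against 13.7, 11.3 and 8.49 CPM in WT lung (log2 fold change 0.79, SE 0.30, edgeR adjusted p = 0.42). In both, every IL6KO library lay above every WT library, which held for 2 of the 10 genes and for 8.30% of all genes, and none of the 10 had every IL6KO library below, against 8.55% of all genes. IL6KO replicate 3 was the highest library for Pdgfd. Without WT replicate 3, with 1268 genes called over the table, Pdgfb had 0.23 (edgeR adjusted p = 0.123) and Pdgfd 0.63 (edgeR adjusted p = 0.277), and still none of the 10 was called.

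The other ligands and the receptors overlapped between the genotypes at day 56. Angpt1 had 24.5, 33.7 and 40.8 CPM in IL6KO lung, against 26.03, 23.1 and 36.3 CPM in WT lung, where the library that stood apart was the highest WT one (log2 fold change 0.22, edgeR adjusted p = 0.689, and 0.42, edgeR adjusted p = 0.258, without it). Angpt2 had 21.9, 25.7 and 26.4 CPM in IL6KO lung, against 21.9, 23.8 and 26.8 CPM in WT lung (0.03, edgeR adjusted p = 0.931). Tek had 493, 490 and 667 CPM in IL6KO lung, against 443, 399 and 515 CPM in WT lung (0.28, edgeR adjusted p = 0.487). The WT library of Tek that reached the IL6KO range was the one that stood apart. Without it every IL6KO library lay above both WT libraries, a split whose share over all genes was not computed. Leaving that library out favours such splits by the way it was picked, so this one is no support. Without that library Tek had 0.38 (edgeR adjusted p = 0.186). Tie1 had 383, 412 and 341 CPM in IL6KO lung, against 354, 338 and 300 CPM in WT lung (0.19, edgeR adjusted p = 0.497). The Angpt2 to Angpt1 ratio was 0.893, 0.763 and 0.648 in IL6KO lung, against 0.840, 1.03 and 0.740 in WT lung, so the genotypes overlapped (mean log2 difference -0.18, and -0.29 without WT replicate 3). Without that library Angpt2 had 0.11 (edgeR adjusted p = 0.574) and Tie1 had 0.12 (edgeR adjusted p = 0.474).

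Pdgfa had 49.0, 37.3 and 42.0 CPM in IL6KO lung, against 44.9, 60.7 and 36.3 CPM in WT lung at day 56 (log2 fold change -0.15, edgeR adjusted p = 0.748). Pdgfc had 3.77, 5.28 and 4.05 CPM in IL6KO lung, against 5.60, 4.74 and 4.45 CPM in WT lung (-0.18, edgeR adjusted p = 0.707). Neither Pdgfa nor Pdgfc separated the genotypes. Pdgfra had 132, 212 and 215 CPM in IL6KO lung, against 261, 153 and 163 CPM in WT lung (-0.05, edgeR adjusted p = 0.948). Pdgfrb had 135, 209 and 229 CPM in IL6KO lung, against 211, 187 and 145 CPM in WT lung (0.07, edgeR adjusted p = 0.897). Without WT replicate 3, Pdgfa had -0.31 (edgeR adjusted p = 0.277), Pdgfc -0.25 (edgeR adjusted p = 0.486) and Pdgfra -0.16 (edgeR adjusted p = 0.787), while Pdgfrb changed sign to -0.06 (edgeR adjusted p = 0.893). Both receptors were lowest in IL6KO replicate 1, and the library-to-library spread was wider than at day 7: Pdgfrb averaged 191 ± 49.3 CPM in IL6KO lung and 181 ± 32.9 CPM in WT lung at day 56, and 293 ± 2.35 CPM in IL6KO lung and 276 ± 9.66 CPM in WT lung at day 7 (SD, n = 3 each).

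None of the surrounding lists held a call at day 56. In the PDGF processing list Serpine2 again stood first by p, with -0.82 (edgeR adjusted p = 0.267). Without WT replicate 3 the PDGF processing list had 0 higher and 1 lower, the Tie partner list 1 higher and 1 lower, and PDGF receptor signalling 2 higher and 0 lower. The platelet marker median was 0.51 and its sum 50.2 to 61.4 CPM in IL6KO lung, against 26.6 to 45.3 CPM in WT lung, and its part in the Pdgfb and Pdgfd values was not tested.

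**Figure D3:**
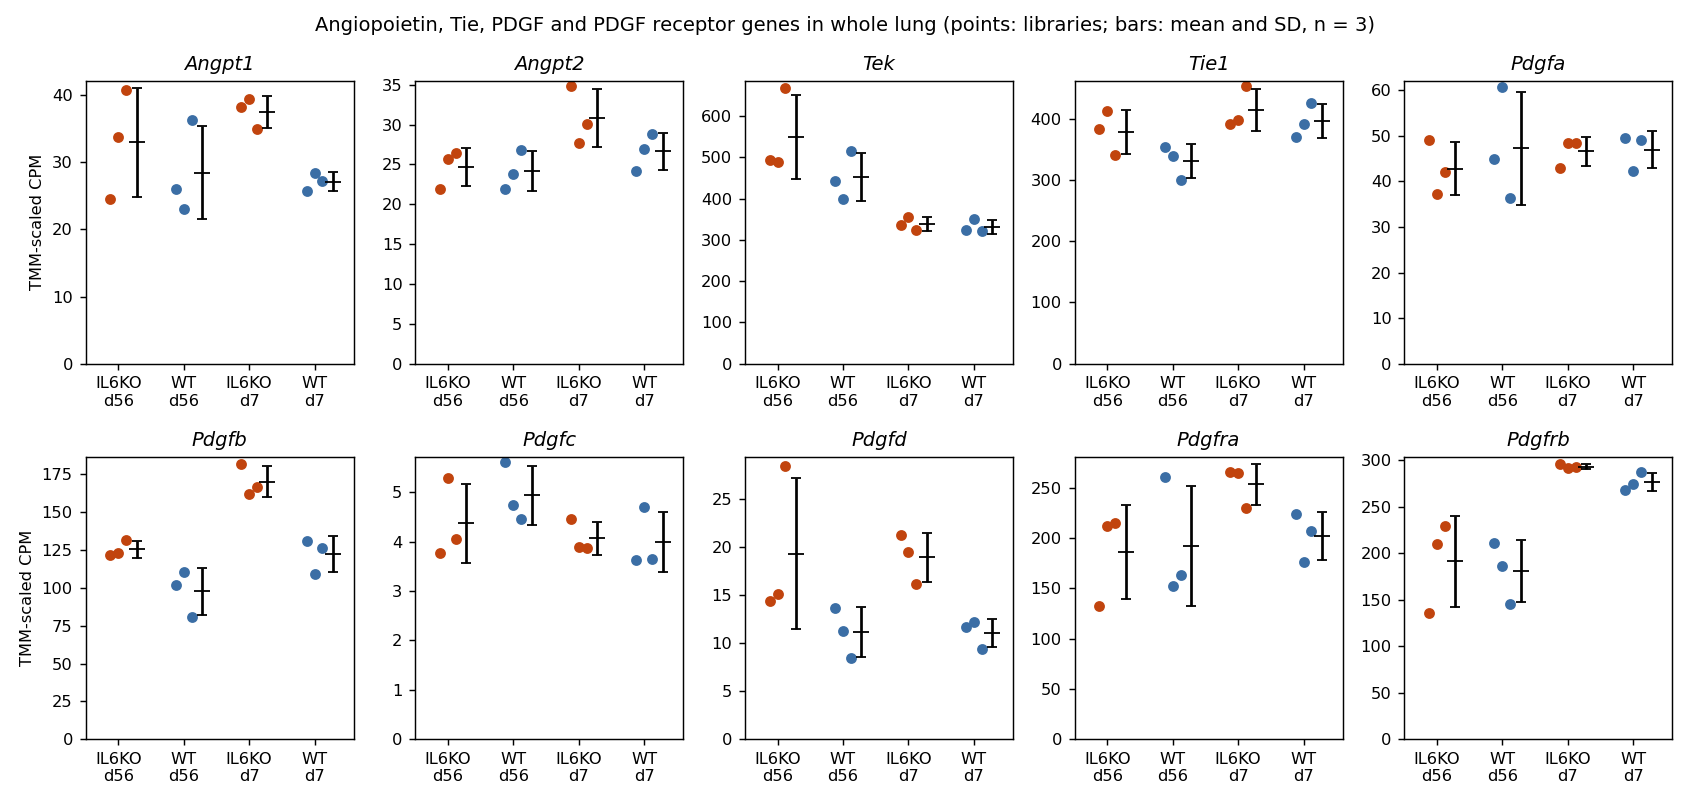
TMM-scaled CPM (y axes, from 0) of the 10 genes in the whole-lung groups, with IL6KO left of WT and day 56 (d56) left of day 7 (d7). Points are libraries and bars are the mean and SD (n = 3). Angpt1, Pdgfb and Pdgfd separate the genotypes at day 7, Tek is higher at day 56 than at day 7 in both genotypes, and Pdgfrb is lower.

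The difference between the days in the effect of genotype was tested itself. The interaction called 0 of the 10 genes and 0% of 13869 genes (0% higher and 0% lower), and 0 of the 10 had an unadjusted p under 0.05. DESeq2 and limma-voom called 0 of the 10 as well, as did edgeR without WT day 56 replicate 3, when 642 genes were called. The IL6KO effect at day 56 minus that at day 7 was 0.02 for Pdgfd (1.96 SE either side, -0.67 to 0.72). It was -0.12 for Pdgfb (-0.43 to 0.20) and -0.25 for Angpt1 (-0.75 to 0.26). These ranges hold no difference and also a loss of the whole day 7 effect of Angpt1 (0.47), so the data do not settle whether it persisted.

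Time was examined next, within each genotype. Tek, the Tie2 gene, was higher at day 56 than at day 7 and Pdgfrb lower in both genotypes, and Pdgfb was also called lower in IL6KO lung. The days were counted in separate tables, so day and count table cannot be told apart. In IL6KO lung 3 of the 10 genes were called, 1 higher and 2 lower, against 8.39% of 13869 genes (3.09% higher and 5.31% lower). In WT lung 2 of the 10 were called, 1 higher and 1 lower, against 14.7% (6.18% higher and 8.53% lower).

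Tek averaged 550 ± 102 CPM at day 56 and 339 ± 16.1 CPM at day 7 in IL6KO lung, and 452 ± 58.5 CPM at day 56 and 331 ± 16.7 CPM at day 7 in WT lung (SD, n = 3 each). The days did not overlap in either genotype, with log2 fold changes of 0.70 in IL6KO lung (SE 0.13, edgeR adjusted p = 0.00395) and 0.45 in WT lung (SE 0.13, edgeR adjusted p = 0.0324). Tie1, its co-receptor, went the other way in value, with -0.13 in IL6KO lung (edgeR adjusted p = 0.512) and -0.26 in WT lung (edgeR adjusted p = 0.106), and was not called. Angpt1 had -0.18 in IL6KO lung and 0.06 in WT lung, and Angpt2 had -0.32 and -0.14 in the same order, none of them called.

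Pdgfrb had a log2 fold change of -0.62 in IL6KO lung (SE 0.17, edgeR adjusted p = 0.044) and -0.61 in WT lung (SE 0.17, edgeR adjusted p = 0.0313), with every day 56 library below every day 7 library in both. Without a call, the same held for Angpt2 and Pdgfra in IL6KO lung and for Tie1 in WT lung. The share of all genes whose days do not overlap was not computed, so none of these splits, nor that of Tek, can be set against it. At an unadjusted p under 0.05 edgeR had 4 of the 10 genes in each genotype. Over all genes it had 21.9% in IL6KO lung and 29.6% in WT lung. Pdgfb averaged 125 ± 5.59 CPM at day 56 and 170 ± 10.2 CPM at day 7 in IL6KO lung, and 97.6 ± 15.4 CPM at day 56 and 122 ± 11.7 CPM at day 7 in WT lung. It was called lower in IL6KO lung (-0.44, SE 0.11, edgeR adjusted p = 0.0316) and not in WT lung (-0.32, SE 0.11, edgeR adjusted p = 0.0791). That does not show a difference between the genotypes, since the interaction above was not called for Pdgfb. Pdgfra had -0.44 in IL6KO lung (edgeR adjusted p = 0.265) and -0.07 in WT lung (edgeR adjusted p = 0.861). Pdgfa, Pdgfc and Pdgfd had between -0.12 and 0.10 in IL6KO lung and between 0.01 and 0.30 in WT lung, with no call.

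The calls over time leaned on single libraries in WT lung. Without WT day 56 replicate 3 no gene of the 10 was called there, with Tek at 0.36 (edgeR adjusted p = 0.0567) and Pdgfrb at -0.46 (edgeR adjusted p = 0.0698). None was called without any 1 of the WT day 7 libraries either, and 1 was called without WT day 56 replicate 1, WT day 56 replicate 2 or IL6KO day 7 replicate 2. In IL6KO lung Tek was called in every fit that left out 1 library. Pdgfb was not called there without any 1 of the 6 IL6KO libraries or WT day 7 replicate 3 (edgeR adjusted p = 0.0515 to 0.128). Pdgfrb was kept without IL6KO day 56 replicate 3, WT day 56 replicate 1 or WT day 56 replicate 3, and lost without any other library (edgeR adjusted p = 0.0646 to 0.13) and without the low-count filter (edgeR adjusted p = 0.0588).

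**Figure D4:**
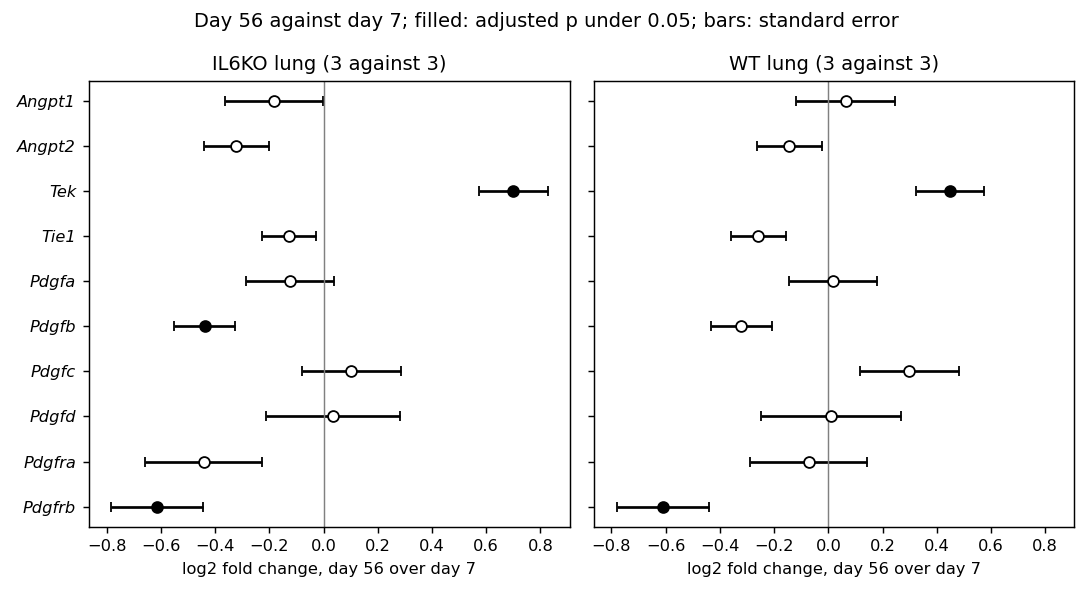
Log2 fold change of day 56 over day 7 (x axis) for the 10 genes (y axis) in IL6KO lung, left, and WT lung, right. Points are edgeR estimates, bars are 1 SE and filled points have an adjusted p under 0.05. Tek lies at 0.70 in IL6KO and 0.45 in WT lung, Pdgfrb at -0.62 and -0.61, and Pdgfb is filled in IL6KO lung only, a contrast that the interaction test did not call.

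Genes that process or bind PDGF were lower at day 56 where they were called. Of 12, 0 were higher and 4 lower in IL6KO lung, and 0 higher and 6 lower in WT lung. Sparc, a matrix protein that binds PDGF, had -1.24 in IL6KO lung (edgeR adjusted p = 7.6e-07) and -1.37 in WT lung (edgeR adjusted p = 2.74e-07). Pcsk5, a proprotein convertase, had -0.81 in IL6KO lung (edgeR adjusted p = 5.77e-05) and -0.95 in WT lung (edgeR adjusted p = 1.06e-05). Of the 20 Tie partners and effectors, 2 were higher and 3 lower in IL6KO lung, and 3 higher and 3 lower in WT lung. Esm1, the gene of the endothelial proteoglycan endocan, had 2.44 in IL6KO lung (edgeR adjusted p = 0.0017) and 3.79 in WT lung (edgeR adjusted p = 7.25e-05), and Mmp14 had -1.04 (edgeR adjusted p = 0.000894) and -1.24 (edgeR adjusted p = 0.000149). Of 24 PDGF receptor signalling genes 0 were called in IL6KO lung, and 0 higher and 2 lower in WT lung (Nras, -0.49, and Shc1, -0.32).

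Markers of the cells that carry Pdgfrb moved in the same comparisons. Of 12 pericyte markers, 1 was higher and 2 lower in IL6KO lung and 0 higher and 6 lower in WT lung, where the count was 4 lower without WT day 56 replicate 3. The NG2 gene Cspg4, a pericyte marker, had -0.85 in IL6KO lung (edgeR adjusted p = 0.000186) and -0.58 in WT lung (edgeR adjusted p = 0.00269). The pericyte sum was 1455 to 1722 CPM at day 56 and 1783 to 1958 CPM at day 7 in IL6KO lung, and 1386 to 1663 CPM at day 56 and 1761 to 1803 CPM at day 7 in WT lung. Of 12 smooth muscle markers, 0 were higher and 6 lower in IL6KO lung and 0 higher and 7 lower in WT lung, with sums of 1617 to 1826 CPM at day 56 and 2656 to 2716 CPM at day 7 in IL6KO lung. Pericyte and smooth muscle sums were thus below their day 7 range in each genotype, beside the lower Pdgfrb. Of 17 endothelial markers, 4 were higher and 2 lower in IL6KO lung and 6 higher and 5 lower in WT lung, beside the higher Tek, and the endothelial sum was 6588 to 6810 CPM at day 56 and 5634 to 6087 CPM at day 7 in IL6KO lung. Of 15 fibroblast markers, 1 was higher and 4 lower in IL6KO lung and 0 higher and 4 lower in WT lung, with sums of 3050 to 3345 CPM at day 56 and 6015 to 7143 CPM at day 7 in IL6KO lung, and 3193 to 3743 CPM at day 56 and 7391 to 8953 CPM at day 7 in WT lung. Of 7 erythroid markers, 3 were lower in IL6KO lung (median -1.79) and 4 in WT lung (median -2.002), and none was higher. The part of these cell types in the changes of Tek, Pdgfb and Pdgfrb was not tested.

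The CD4 isolates show how much of these vascular genes' RNA came with cells separated from the same kind of tissue. T cell markers summed to 3411 to 3719 CPM in IL6KO and 4037 to 4148 CPM in WT isolates, against 93.5 to 114 CPM in IL6KO and 73.6 to 102 CPM in WT whole lung. Macrophage markers summed to 9828 to 14046 CPM in IL6KO and 8956 to 9217 CPM in WT isolates, which is 62.4% and 52.4% of their level in whole lung, and the median macrophage marker stood above its lung level (503% and 287%), so the isolates were not T cells alone. Endothelial markers were at 2.27% of their lung level in IL6KO and 2.87% in WT isolates, pericyte markers at 0.882% and 1.37%, and fibroblast markers at 2.01% and 2.17%. CD4 and lung were counted in separate tables, so isolate and count table cannot be told apart.

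All 10 genes were called lower in the isolates than in whole lung in both genotypes, against 43.2% of 14772 genes lower in IL6KO (36.4% higher, 79.5% in either direction) and 43.6% lower in WT (37.7% higher, 81.4% in either direction). Of these, Angpt2, Pdgfc and Pdgfd did not pass the low-count filter in the isolates alone. They entered this fit through their lung counts, so their lower calls were fixed in advance and are no support. As a share of the lung level, from summed counts with exact 95% intervals that cover counting error only, Tek was at 1.25% in IL6KO isolates (1.02% to 1.53%) and 1.23% in WT isolates (0.995% to 1.49%). Pdgfrb was at 1.25% in IL6KO isolates and 1.39% in WT isolates, and Pdgfra at 0.674% in IL6KO isolates and 1.02% in WT isolates. These receptor shares lay below that of the summed endothelial list. The median endothelial marker was at 0.624% in IL6KO isolates and 1.56% in WT isolates, so the receptors stood above it in IL6KO and below it in WT isolates. Tie1 was at 5.41% in IL6KO isolates (4.95% to 5.90%) and 6.30% in WT isolates (5.80% to 6.83%), above both the sum and the median of the endothelial markers.

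The ligands were spread more widely. Angpt1 kept 28.6% of its lung level in IL6KO isolates (24.9% to 32.6%) and 17.3% in WT isolates (14.1% to 20.9%), where Angpt2 kept 0.705% in IL6KO isolates and 0.929% in WT isolates, from 5 and 6 counts in all. Pdgfb was at 4.78% in IL6KO isolates and 4.59% in WT isolates, and Pdgfa at 3.56% in IL6KO isolates and 2.06% in WT isolates. Angpt1 therefore held a larger share of its lung level in the isolates than Angpt2, Tek or Pdgfb, beyond their counting intervals. Pdgfc, with 10 counts in all in IL6KO and 19 in WT isolates, was at 10.7% in IL6KO isolates (5.07% to 20.1%) and 19.2% in WT isolates (11.3% to 30.7%). Pdgfd had 1 and 0 counts in the IL6KO isolates and 3 counts in each WT isolate, and the count of 0 in IL6KO replicate 2 allows up to 0.261 CPM.

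**Figure D5:**
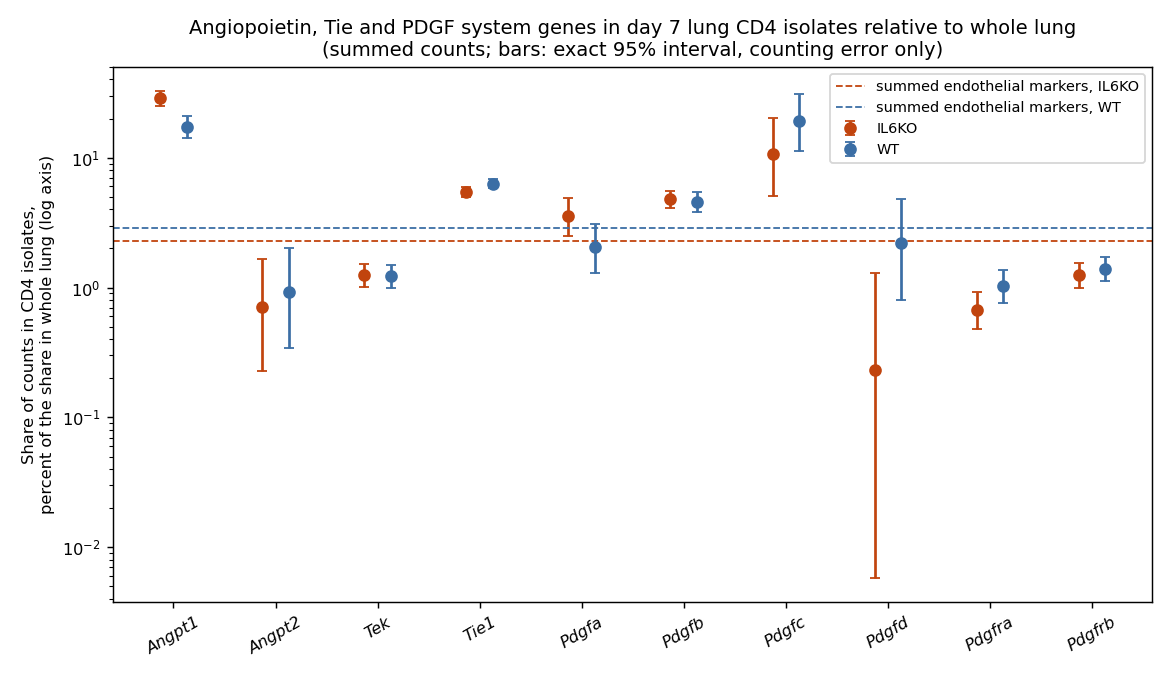
Share of counts of each gene in day 7 lung CD4 isolates as a percentage of its share in whole lung (log y axis), for IL6KO (left point of each pair) and WT (right point). Points are summed counts, bars are exact 95% intervals for counting error only, and dashed lines are the summed endothelial markers at 2.27% (IL6KO) and 2.87% (WT). Angpt1 lies highest in IL6KO at 28.6%, and in WT at 17.3% it is close to Pdgfc at 19.2%, which rests on 19 counts. Pdgfd in IL6KO rests on 1 count.

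Between the genotypes, Angpt1 was the 1 gene of the set called in the CD4 isolates. It had 12.1 and 8.58 CPM (146 and 99 counts) in IL6KO isolates, against 4.72 and 4.64 CPM (54 and 60 counts) in WT isolates. Both IL6KO isolates lay above both WT isolates, with a log2 fold change of 1.14 (SE 0.23, edgeR adjusted p = 0.0336), or 2.21-fold. Of the 10 genes 7 passed the filter on low counts and 3, Angpt2, Pdgfc and Pdgfd, did not, and of 12243 genes tested 6.40% were called, 3.50% higher and 2.91% lower. With 2 libraries in a group the call was lost without IL6KO replicate 1 (0.87, edgeR adjusted p = 0.0912), WT replicate 1 (edgeR adjusted p = 0.189) or WT replicate 2 (edgeR adjusted p = 0.164), and kept without IL6KO replicate 2 (edgeR adjusted p = 0.00735).

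The other genes tested in the isolates were not called. Pdgfb had 6.37 and 9.45 CPM in IL6KO isolates, against 4.90 and 5.95 CPM in WT isolates (log2 fold change 0.54, SE 0.26, edgeR adjusted p = 0.261). Pdgfa had 1.49 and 1.73 CPM (18 and 20 counts) in IL6KO isolates, against 0.875 and 1.00 CPM (10 and 13 counts) in WT isolates (0.77, SE 0.40, edgeR adjusted p = 0.292). With Angpt1 these are 3 genes with both IL6KO isolates above both WT isolates, against 27.2% of all genes, and Pdgfc and Pdgfd, by their few counts, had both below, against 28.8%. Tie1 had 19.5 and 24.2 CPM in IL6KO isolates, against 23.4 and 25.8 CPM in WT isolates (-0.17, edgeR adjusted p = 0.505). Tek had 3.39 and 4.86 CPM in IL6KO isolates, against 4.81 and 3.40 CPM in WT isolates (0.01, edgeR adjusted p = 0.99). The Tie receptors overlapped between the genotypes, as did Pdgfra (-0.29, edgeR adjusted p = 0.696) and Pdgfrb (-0.11, edgeR adjusted p = 0.872).

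Several marker lists moved with genotype in the same isolates. Of 11 tested macrophage markers 3 were higher in IL6KO and 0 lower (Csf1r, 0.77, Adgre1, 0.69, and Cd68, 0.56), and of 14 T cell markers 0 were higher and 4 lower. Of 13 epithelial markers 0 were higher and 8 lower, with sums of 931 to 1010 CPM in IL6KO and 2617 to 3582 CPM in WT isolates. Smooth muscle markers had 3 of 8 lower (25.2 to 31.6 CPM in IL6KO and 58.1 to 61.3 CPM in WT isolates), pericyte markers 2 of 7 lower (12.3 to 19.5 and 22.7 to 25.4 CPM) and endothelial markers 2 of 11 lower (127 to 132 and 156 to 175 CPM). Of 11 tested fibroblast markers 0 were called (120 to 138 and 169 to 172 CPM). Most members of the vascular lists did not pass the test. Erythroid markers summed to 4415 and 2189 CPM in IL6KO isolates, against 824 and 1164 CPM in WT isolates, with a median log2 fold change of 2.01 over 7 tested, of which 1 was higher (Ahsp, 3.74, edgeR adjusted p = 0.0121) and 1 lower (Tfrc, -0.76, edgeR adjusted p = 0.00536). Both the erythroid sum and Angpt1 were highest in IL6KO replicate 1. Platelet markers summed to 68.5 to 79.5 CPM in IL6KO and 59.7 to 67.5 CPM in WT isolates, with 4 of the 13 at 0 in each IL6KO isolate and 3 and 7 at 0 in the WT isolates. The platelet sums were 137% of lung in IL6KO and 157% in WT isolates, while the median platelet marker was at 10.8% and 8.23%. None of the 4 tested was called. Pf4, the platelet factor 4 gene, had 12.003 and 24.2 CPM in IL6KO isolates, against 9.18 and 16.2 CPM in WT isolates. Ppbp was at 0 in all but 1 isolate, and had only 0.320 to 1.24 CPM in day 7 lung. The part of macrophages, platelets, erythroid cells and the others in the Angpt1 value was not tested.

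A test of the difference between the IL6KO effect in the isolates and in whole lung, added after the data were seen, called 0 of the 10 genes, against 6.42% of 14772 genes (1.88% higher and 4.55% lower). For Angpt1 the difference was 0.59 (SE 0.21, edgeR adjusted p = 0.129), and it was called in the fit without IL6KO CD4 replicate 2. At an unadjusted p under 0.05 there were 3 of the 10 genes, Angpt1, Pdgfd and Pdgfra, against 21.6% of all. Pdgfd rested on 1 count in all in IL6KO and 6 in WT isolates, so its value is no support. DESeq2 and limma-voom called 0 of the 10. The higher Angpt1 of the IL6KO isolates is thus not shown to differ from that of whole lung.

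In the isolates the Tie partner, PDGF signalling and processing lists held few calls between the genotypes, and the immediate early genes held more. Of 16 tested Tie partners, 1 was higher (Itgb1, the integrin beta-1 gene, 0.38, edgeR adjusted p = 0.028) and 1 lower (Foxo1, a transcription factor that Tie2 signalling holds in check, -0.50, edgeR adjusted p = 0.0218). Of 24 PDGF receptor signalling genes 1 was higher, the phosphatase gene Ptprj (0.59, edgeR adjusted p = 0.0117), and of 9 processing genes none was called. Of 16 immediate early genes 4 were higher (Dusp1, 0.68, Dusp6, 0.61, Atf3, 0.69, and Klf4, 0.65) and 0 lower. Over all genes tested 3.50% were higher and 2.91% lower. The immediate early sum was at 964% of its lung level in IL6KO and 813% in WT isolates. The cause of these values was not tested.

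Last, the 10 genes were compared in how they varied from library to library in the lung, as a description over 6 libraries of each day in which genotype and scaling are shared. Pdgfb and Pdgfd varied together on both days (Pearson r = 0.848 at day 7 and 0.827 at day 56). Angpt1 followed Pdgfd at day 7 (0.943) and less so at day 56 (0.392), and followed Tek at day 56 (0.843) more than at day 7 (0.466). Pdgfra and Pdgfrb had 0.646 at day 7 and 0.825 at day 56.

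Among 13367 genes, the 3 nearest in pattern were taken by the lower of the day 7 and day 56 correlations. For Angpt1 they were Tcp11l2 (r = 0.947 at day 7 and 0.957 at day 56), Helb and Card6. For Pdgfb they were Nqo2 (0.959 and 0.979), Armcx4 and Fzd4, a Wnt receptor gene. For Pdgfd they were Ccdc3 (0.938 and 0.970), Inpp5f and Cdh5, the VE-cadherin gene of endothelial junctions (0.971 and 0.923). Pdgfd was called with genotype at day 7 and the endothelial marker Cdh5 was not (log2 fold change 0.18, edgeR adjusted p = 0.268). Like Pdgfd, Cdh5 had every IL6KO library above every WT library on both days. It had 915 to 986 CPM in IL6KO lung against 809 to 859 CPM in WT lung at day 7, and 701 to 902 against 630 to 692 CPM at day 56. Cdh5 was picked for following Pdgfd over these same libraries, so its separation is no independent support. Such separation upward held for 9.09% of all genes at day 7 and 8.30% at day 56, genes that were not picked in this way. The part of genotype in this pairing was not tested. For Tek they were Exoc4 (0.958 and 0.875), Mrpl40 and Ipp, for Tie1 Psmg3 (0.985 and 0.855), Cnot8 and Pitpnm1, for Pdgfrb Armcx2 (0.947 and 0.966), Adora2a and Zfp395, and for Pdgfra Zswim3 (0.950 and 0.943), Specc1l and Pwwp2a. Angpt2 was nearest to Extl3 (0.947 and 0.947), Pdgfa to Gpr143 (0.845 and 0.969) and Pdgfc to Sf3b6 (0.908 and 0.900).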

How the data were processed

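RNA-seq counts per gene were read for 16 rat libraries in 3 tables. The authors deposited raw counts, 1 column per library with replicates not pooled, per the file headers. Per the submitters' processing notes the build was GRCm38, a mouse build named for the rat libraries too, with aligner, counter, annotation and use of strand not given in the sources used here. 0 sample columns were unmatched. Mouse spleen libraries of the series were not used here, and 1 gene of the PDGF processing list is not reported here.

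The 10 genes and 14 gene lists were chosen with earlier results of these data known. Each comparison was fitted over the whole table (filterByExpr, TMM, glmQLFit and glmQLFTest with robust estimation, edgeR 4.0.16 in R 4.3.3, Benjamini-Hochberg over all genes tested, threshold 0.05), with group as the only term. Day comparisons used the 20230 symbols shared by the lung tables and isolate comparisons the 22071 shared at day 7. The SE was taken from the fold change and its F value. Genes named from a list were up to 4 with the smallest p in that comparison, and nearest genes were found on log2 CPM with a prior count of 2. A count of 0 was bounded by 3 counts. The fits were tested on simulated data.

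Each result was also computed with DESeq2 1.42.0, with limma-voom (limma 3.58.1), with RLE scaling, without the low-count filter, with a term for replicate number, and with 1 library left out at a time. The genotype by isolate interaction and the list counts under these settings were added after the data were seen. Replicate pairs of a group differed by more than sampling noise (chi-square per degree of freedom 8.36 to 38.1). Figures were drawn with matplotlib 3.10.9.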

Additional observations from a re-analysis of the deposited data

How the results depend on the processing

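Over the 10 genes and all comparisons 1108 values were recomputed, leaving out Angpt2, Pdgfc and Pdgfd wherever the CD4 isolates enter. Of these values 1000 kept their direction and side of the threshold, 48 lost a call, 1 gained one and 59 changed sign. All sign changes came from values that were not called. The number of the 10 genes called without 1 library at a time ran from 0 to 3 for IL6KO against WT in day 7 lung, 0 to 1 in CD4 isolates, 1 to 3 for day 56 against day 7 in IL6KO lung, 0 to 2 in WT lung and 0 to 1 for the genotype by isolate interaction, and it stayed at 0 for day 56 lung and the genotype by day interaction and at 10 for isolates against lung. The cause was not tested. The labels do not say whether replicate numbers pair the libraries. At day 7 the same-number correlations were 0.056, 0.078 and 0.256, and those of unlike numbers ran from -0.165 to 0.111, so pairing is not settled there. At day 56 the same-number correlations were -0.161, -0.0749 and -0.0275, which show no pairing. In CD4 isolates the value of -0.000359 carries no information, because groups of 2 libraries were centred. With the replicate block the count was 1 for day 56 against day 7 in IL6KO lung and 1 in WT lung (edgeR adjusted p = 0.061 for Pdgfb and 0.0808 for Pdgfrb in IL6KO lung, 0.0615 for Pdgfrb in WT lung), and the block moved no other count of the 10 genes.

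Over all genes IL6KO against WT in day 7 lung called 300 genes, 565 with DESeq2 and 543 with the block, 94 to 372 without 1 library. In day 56 lung they were 2, with 175 by DESeq2, 7 without the filter, 4 by limma-voom, 0 with the block and 1 to 1268 without 1 library. In CD4 isolates they were 784, with 76 to 970 without 1 library. For the genotype by day interaction they were 0, with 47 by DESeq2 and 0 to 642 without 1 library, and for the genotype by isolate interaction 949, with 600 by limma-voom and 341 to 1113 without 1 library. For day 56 against day 7 they were 1164 in IL6KO lung (689 to 1676) and 2040 in WT lung (1232 to 3667). Log2 fold changes that changed sign without 1 library ran, for IL6KO against WT in day 7 lung, Tek -0.0072 to 0.075, Tie1 -0.0076 to 0.11, Pdgfa -0.078 to 0.043 and Pdgfc -0.057 to 0.16. In day 56 lung they ran Angpt2 -0.039 to 0.11, Pdgfa -0.31 to 0.072, Pdgfra -0.19 to 0.24 and Pdgfrb -0.074 to 0.27. In CD4 isolates they ran Tek -0.26 to 0.28, Pdgfra -0.56 to 0.028 and Pdgfrb -0.51 to 0.20. For the genotype by day interaction they ran Pdgfa -0.29 to 0.087, Pdgfd -0.36 to 0.20 and Pdgfrb -0.15 to 0.20, and for the genotype by isolate interaction Tek -0.37 to 0.16, Pdgfb -0.33 to 0.22 and Pdgfrb -0.69 to 0.039. For day 56 against day 7 they ran Angpt1 -0.35 to 0.011, Pdgfc -0.033 to 0.21 and Pdgfd -0.34 to 0.23 in IL6KO lung, and Angpt1 -0.13 to 0.21, Pdgfa -0.19 to 0.19, Pdgfd -0.16 to 0.18 and Pdgfra -0.36 to 0.086 in WT lung. limma-voom gave Pdgfd -0.0069 in the genotype by day interaction, -0.0069 for day 56 against day 7 in IL6KO lung and -4.2e-05 in WT lung. Few counts limit Angpt2, Pdgfc and Pdgfd in the CD4 isolates, and 2 or 3 libraries in a group limit every comparison.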
